A study of Mus musculus with 1152 samples.

Results

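Aqp1, Emcn, Plvap, Sox17 and Cd34 are usually named as genes of blood endothelium, and here their transcripts were followed in lymphatic endothelial cells (LECs) from the nasopharyngeal plexus of lymphatics (NPLP). They were taken by name and make up 5 of the 23168 genes in the deposited expression table. They were chosen by their detection and their variation between these same cells, known from an earlier look at the data, so that the values below are a description and carry no test. The question addressed was which of them these lymphatic cells share and how each varied from cell to cell.

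The cells came from aged c57bl/6 mice (C57BL/6J in the methods) of both sexes, whose nasopharyngeal mucosa was pooled, dissociated and sorted for CD31, a pan-endothelial surface protein, together with podoplanin (PDPN), which lymphatic but not blood endothelium carries. Single cells were sequenced with Smart-seq3, a plate-based method that covers whole transcripts. All labelled cells belong to the 1 aged group, and 56.9% of them, about 660 cells to the nearest 10, were analysed here. No label ties a cell to a mouse. The pool was therefore handled as 1 sample without replicates, no p-value was computed, and younger mice were not compared.

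Blood and lymphatic vessels are lined by related endothelia that share many genes, and lymphatic identity is set by the transcription factor Prox1 and maintained with the receptor Flt4. Aqp1 encodes a water channel that is abundant in red blood cells and capillary endothelium. Emcn (endomucin) and Cd34 encode sialomucins, heavily glycosylated surface proteins of blood capillaries, of which Cd34 is also a well-known protein of blood progenitors and fibroblasts. Plvap encodes the protein of the diaphragms that span caveolae and fenestrae, and Sox17 encodes a SoxF transcription factor of arterial endothelium.

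The promoters of Aqp1, Emcn and Cd34 are shown because the level of each of these genes follows a different group of cells below. Each is the RefSeq window (GRCm38.p6) from 250 bases before to 50 bases after the RefSeq start, read 5′ to 3′ on the gene's strand. The Aqp1 window is chr6:55336049-55336348 (+), the Emcn window is chr3:137340828-137341127 (+) and the Cd34 window is chr1:194938571-194938870 (+). Promoters were matched for 3 of the 5 genes, and not for Plvap and Sox17. Capitals mark a SOX core (ACAAT, or ATTGT on the other strand) and an extended ETS core (AGGAAG, or CTTCCT on the other strand), the letters bound by SoxF and by endothelial ETS factors.
Aqp1: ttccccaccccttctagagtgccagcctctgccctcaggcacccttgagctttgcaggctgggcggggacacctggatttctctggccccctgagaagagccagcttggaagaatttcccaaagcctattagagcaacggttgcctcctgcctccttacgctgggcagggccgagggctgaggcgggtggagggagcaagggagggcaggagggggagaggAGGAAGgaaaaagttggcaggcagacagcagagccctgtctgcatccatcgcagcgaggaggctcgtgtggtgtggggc
Emcn: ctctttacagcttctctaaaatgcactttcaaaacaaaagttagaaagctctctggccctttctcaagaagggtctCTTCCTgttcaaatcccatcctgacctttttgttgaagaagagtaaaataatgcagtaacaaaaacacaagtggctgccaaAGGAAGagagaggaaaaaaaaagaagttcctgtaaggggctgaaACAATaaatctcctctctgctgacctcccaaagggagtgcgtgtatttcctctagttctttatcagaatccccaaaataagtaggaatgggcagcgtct
Cd34: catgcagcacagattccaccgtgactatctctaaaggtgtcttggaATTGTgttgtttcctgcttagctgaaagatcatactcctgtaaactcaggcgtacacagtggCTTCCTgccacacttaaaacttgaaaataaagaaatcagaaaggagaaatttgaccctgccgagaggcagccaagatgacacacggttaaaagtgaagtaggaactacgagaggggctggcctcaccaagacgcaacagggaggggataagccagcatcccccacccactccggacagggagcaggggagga

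The 3 windows differed in base composition and in these letters. GC content was 62.7% for Aqp1, 41% for Emcn and 50% for Cd34, against a median of 52.7% over all 32851 mouse windows of this length. The SOX core occurred 0 times in the Aqp1 window, 1 time in the Emcn window, at position -49 from the start, and 1 time in the Cd34 window, at -204. Of all windows, 31.02% held it on either strand. The extended ETS core occurred 1 time for Aqp1, 2 times for Emcn and 1 time for Cd34, and 35.4% of all windows held it. Both motifs are therefore common, and a match describes the letters only.

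These cells were lymphatic by their markers. Depth varied widely, with 7046 to 10727631 whole reads recovered per cell (median 148202) and 2006 to 7679 genes detected. Flt4 was detected in 100% of cells and Prox1 in 97.1%, whereas Flt1, a receptor that defines blood endothelium, had a read in 16 cells, or 2.44%. No read of Flt1 was found in the 19 cells that lacked Prox1. At its share of 2.44% over all cells, 19 cells were too few for this absence to be informative. Markers of other cell types were mostly rare: the 5 erythroid genes had reads in 0.457% to 3.05% of cells, the pan-leukocyte gene Ptprc in 0.915%, and the epithelial gene Epcam in none of the cells, where a count of 0 allows a share of up to 0.457% (3 cells). Of the haematopoietic list, Fcer1g had reads in 9.60% and Lyz2 in 5.79% of cells, and 20.1% of cells had a read of at least 1 of its genes. Kcnj8 (46.2% of cells) of the mural list and Dcn (30.03%) of the fibroblast list were frequent, while the defining mural gene Pdgfrb (1.07%) and fibroblast genes Col1a1 (2.44%) and Pdgfra (1.83%) were near 0.

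Aqp1 was detected in 630 cells, or 96.04% (95% interval 94.2% to 97.4%, exact Clopper-Pearson, which covers counting error only). A gene counts as detected at 1 read or more, and levels are given as deposited, as the natural log of 1 plus reads per 10000. On this scale Aqp1 ranged from 0 through a median of 2.17 to 5.52, with a mean of 2.19 ± 1.75 (SD over all cells analysed). The cells spread over the whole of that range: 10% of cells lay under 0.057, 25% under 0.31 and 10% above 4.52. In linear units the water channel averaged 29.8 reads per 10000, and a single cell reached 248.6. Its variance beyond the trend of variance on mean stood above that of 99.99% of the 9666 genes detected in at least 10% of cells.

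Emcn was as widely detected and far more even. The sialomucin had reads in 96.2% of cells (94.4% to 97.5%). Its level ran from 0 through a median of 1.82 to 3.68, with a mean of 1.68 ± 0.84. Of the cells, 10% lay under 0.30, 25% under 1.11 and 10% above 2.65, and 78.2% stood above 1. When the cells with at least 20000 reads (86.6% of those analysed) were thinned to that number, 89.8% of them still had Emcn, against 74.1% for Aqp1. The order of these neighbours in detection thus depended on depth: at the cells' own depth their intervals overlapped, and at a common depth Emcn was the more widely detected. Per kilobase of exon, the scale on which genes can be compared, the mean linear level was 11.3 reads per 10000 for Aqp1 and 1.16 for Emcn.

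Plvap was detected in 65.9% of cells (62.1% to 69.5%), and in 50.2% after thinning. Values of the diaphragm gene ran from 0 through a median of 0.34 to 2.92, with a mean of 0.60 ± 0.69. Its mean linear level per kilobase was 0.721 reads per 10000. Its variance beyond the trend was above that of 92.5% of the same genes, and that of Emcn and of Cd34 was above 92.1%. The end of Plvap overlaps Gtpbp3 on the opposite strand, which had reads in 23.2% of cells, and as the counting is not stated to use strand the reads of the overlap cannot be told apart.

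Cd34 was found in a minority of cells, 35.5% (31.9% to 39.3%) at their own depth and 25% after thinning. Its median was 0 and its highest value 2.79, with a mean of 0.29 ± 0.54, and 14.3% of cells stood above 1. Its mean linear level per kilobase was 0.0879 reads per 10000, the fourth of the 5 genes. Cd34 also overlaps an antisense gene, Gm16897, with reads in 35 cells. The intervals of the detection shares of Emcn and Plvap, of Plvap and Cd34, and of Cd34 and Sox17 did not overlap, so that only Aqp1 and Emcn shared a place in that order.

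Sox17 was rarely detected. It had reads in 13 cells, or 1.98% (1.06% to 3.36%), with a median of 2 reads in a cell that had any and a highest value of 0.87. No cell stood above 1, and 0.880% of the thinned cells kept a read. All 13 cells had reads of Prox1 and Flt4 and 0 had a read of Flt1. As 97.1% of all cells had Prox1, 100% Flt4 and 2.44% Flt1, this does not set the 13 cells apart from the rest. Among the cells with no read of a fibroblast or mural list gene, the share with Sox17 was 0.862% (0.105% to 3.08%). Of all 13 cells with Sox17, 9 were in the Ptx3+ capillary-like cluster described below.

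Individual cells carried several of these genes at once. Aqp1 and Emcn were both detected in 92.4% of cells, and 1 cell had neither. Of all cells, 2.59% had 1 of the 5 genes, 24.7% had 2, 47.7% had 3, 24.5% had 4 and 0.457% had all 5, and each cell had at least 1. Aqp1, Emcn, Plvap and Cd34 were found together in 23.8% of cells (20.6% to 27.2%). Prox1 was detected in 96.98% of the cells with Aqp1, 96.99% of those with Emcn, 96.99% of those with Plvap and 95.3% of those with Cd34, close to its share over all cells. Flt4 was detected in every cell, so it could not separate cells with and without these genes.

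Relatives of each gene were detected unevenly. Of 11 aquaporins listed, 4 were analysed here. Aqp11 had reads in 2.59% of cells, and Aqp4, the aquaporin of astrocytes, and Aqp7 had none. Among the sialomucins, Pdpn (94.8%), which the sort selected for, Podxl (90.9%) and Cd164 (76.98%) were widespread, and Podxl2 had no reads. The caveola genes were nearly all widespread: Cavin2, a coat protein of caveolae, was detected in 100% of cells and Cav1, their scaffold, in 98.5%, and the lowest were Ehd4 (53.7%) and Pacsin3 (44.2%). Plvap at 65.9% was therefore among the less often detected of this list of 10. Of the SoxF factors, Sox18, which switches on Prox1 in development, was detected in 72.6% of cells and Sox7 in 54.7%, against 1.98% for Sox17.

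**Figure D1:**
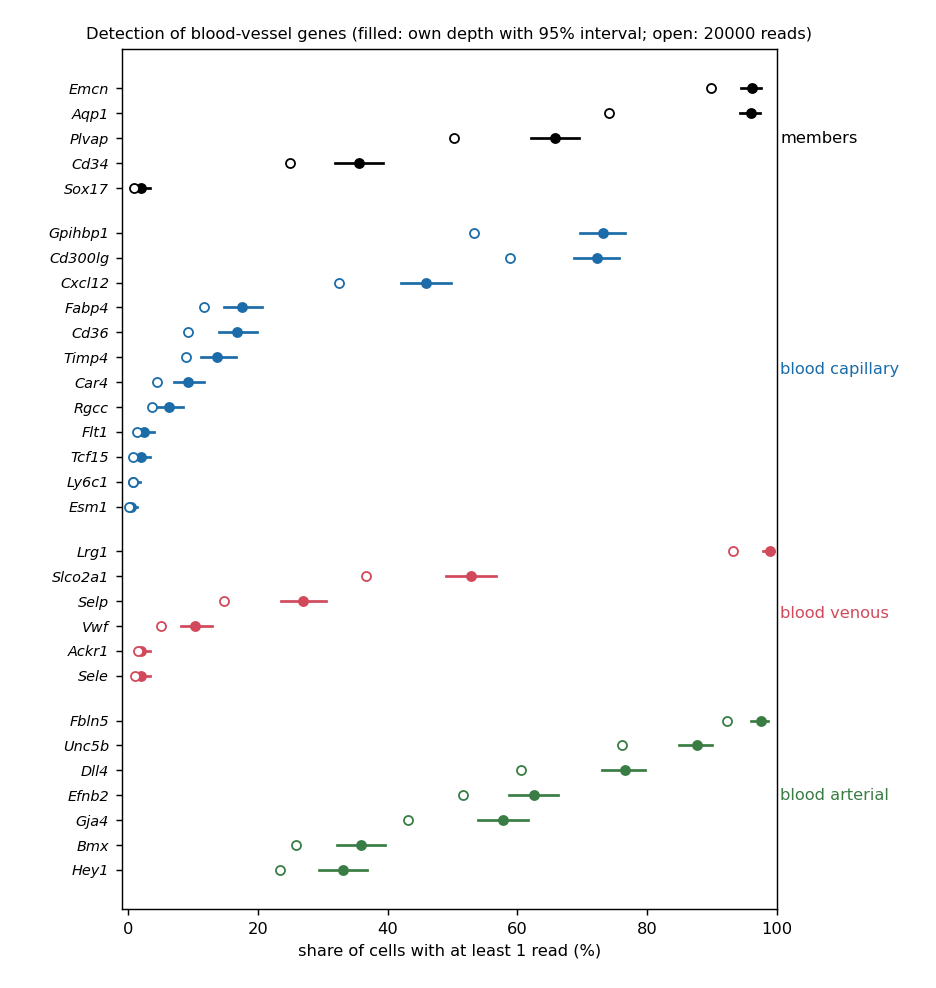
Share of cells (x axis, %) with at least 1 read of each member and of each gene of 3 lists of blood capillary, venous and arterial genes (y axis). Filled points give all cells analysed with 95% exact intervals for counting error and open points give the cells thinned to 20000 reads. Emcn and Aqp1 lie above 96%, Sox17 lies at 1.98%, and each of the 3 lists spans a wide range.

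Other genes used to mark blood vessels were spread as widely as the 5 members, as the plot of detection shares shows. Over 25 genes of 3 lists (blood capillary, venous and arterial) the median share was 26.98%, with 9 genes in at least 50% of cells and 6 in under 5%. That median depended on what counted as detection: it was 14.8% in thinned cells, 8.54% with a level above 1, and 19.4% in the 35.4% of cells with no read of a fibroblast or mural list gene. For the 17 pan-endothelial genes the median was 96.8%, and for the 8 lymphatic identity genes it was 96.5%. At the cells' own depth Aqp1 and Emcn lay at the level of the last 2 lists. After thinning the medians of those lists were 93.8% and 90.5%, near the 89.8% of Emcn and above the 74.1% of Aqp1. Sox17 lay with the rarest genes of the blood lists.

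In the capillary list of 12 analysed genes the median share was 11.4%. Gpihbp1, the platform that holds lipoprotein lipase on capillaries, was detected in 73.2% of cells and Cd300lg, a sialomucin receptor of capillary endothelium, in 72.3%. The chemokine gene Cxcl12 followed at 45.9%, whereas Ly6c1 (0.762%) and the tip cell gene Esm1 (0.457%) were rare. Venous genes ran from Lrg1, a secreted leucine-rich glycoprotein, at 98.9%, through the prostaglandin transporter Slco2a1 at 52.9% and P-selectin (Selp) at 26.98%, to Ackr1 and Sele at 1.98% each. Arterial genes had the highest median, 62.5% over 7 genes. Among them the matrix gene Fbln5 reached 97.6% and the netrin receptor gene Unc5b 87.7%, and the Notch target Hey1 was lowest at 33.1%. Per kilobase, Lrg1 (14.7 reads per 10000) stood beside Aqp1 (11.3), and the median of the pan-endothelial genes was 1.13, close to the 1.16 of Emcn.

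To describe how the members varied, the cells were clustered with the 5 members and the 3 blood lists left out of the genes used for clustering. Clusters are named only from class markers. Cluster 1 (32.3% of cells) was Ptx3+ capillary-like, with 5 of 5 class markers raised and Gm525, Gpx3 and Stab2 as leading genes. Of these, Gm525 is a marker of the Ptx3- capillary class, of which 1 of 5 was raised here. Cluster 2 (26.1%) was precollecting-like, with 3 of 5 class markers raised (Foxp2, Bmp4 and Apoe) beside 2 of 5 downstream-valve markers (Gja4 and Clu), and it was led by Apoe, Clu and Bmp4. Cluster 3 (16.01%) stayed unnamed with 1 raised marker, Fndc1, and was led by Tppp3, Fbln7 and Fndc1. Cluster 4 (15.4%) was Ptx3- capillary-like, with 3 of 5 class markers raised (Ptn, Anxa3 and Stc1). Fndc1 and Gm525 of that class were not raised in it, and Cav1 of the downstream-valve class was. Cluster 5 (10.2%, 67 cells) was upstream-valve-like, with 3 of 5 class markers raised (Cldn11, Gata2 and Neo1) and Foxc2 and Itga9 not raised. It also had 2 of 5 downstream-valve markers raised (Cldn11 and Esam), beside Stc1 of the Ptx3- capillary class and Cd24a of the precollecting class. As the same cells set the clusters and the levels, the values across clusters describe and do not test. Median reads per cell ran from 81099 in cluster 4 to 228391 in cluster 5, so levels across clusters were also read at the common depth.

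**Figure D2:**
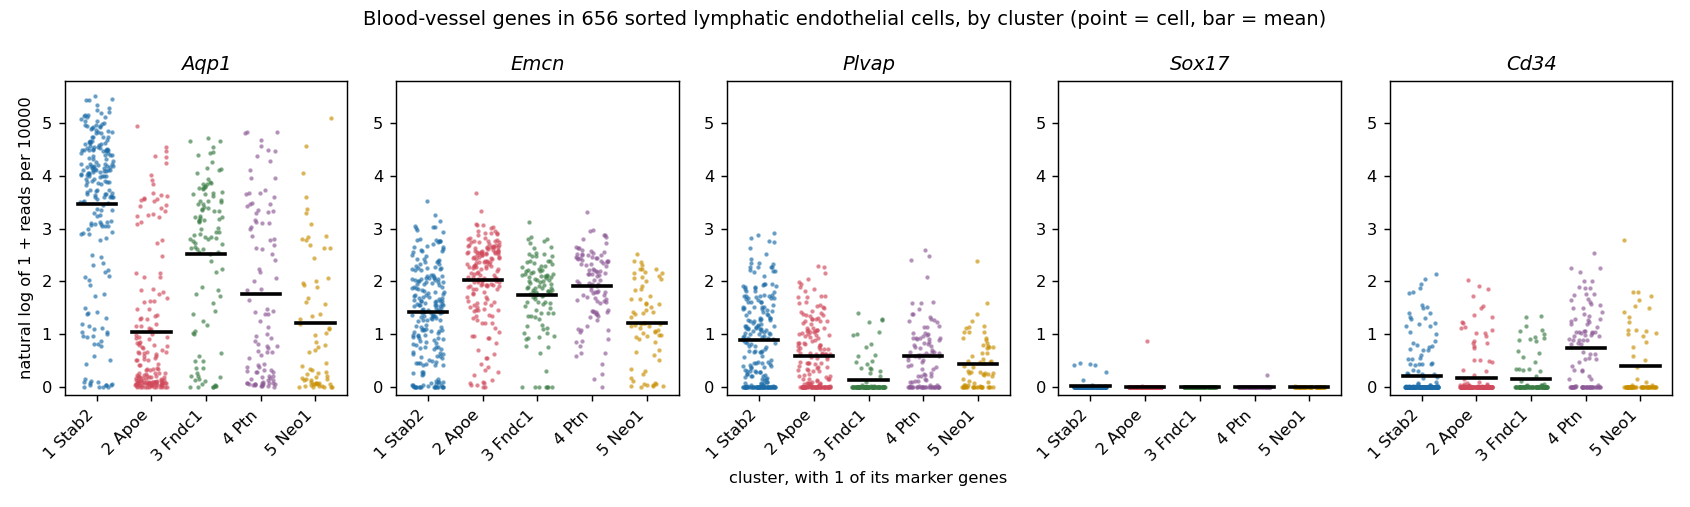
Level of each member (y axis, natural log of 1 + reads per 10000) in each cell, by cluster (x axis, with a marker gene of the cluster); points are cells and bars are means over cells. Aqp1 averages 3.47 in cluster 1 and 1.04 in cluster 2, Emcn is highest in cluster 2, Plvap lowest in cluster 3, Cd34 highest in cluster 4, and Sox17 is near 0 in all 5.

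Aqp1 was highest in the Ptx3+ capillary-like cells. Its mean was 3.47 ± 1.5 in cluster 1, 1.04 ± 1.32 in the precollecting-like cluster 2, 2.53 ± 1.42 in cluster 3, 1.76 ± 1.58 in cluster 4 and 1.20 ± 1.30 in the valve-like cluster 5. Medians were further apart, at 3.99 in cluster 1, 2.89 in cluster 3 and 0.41 in cluster 2, although single cells of all clusters overlapped. On the linear scale the level of cluster 1 was 4.27 times that of all other cells, with 0.1 reads per 10000 added to both. Almost every cell had some reads, between 92.5% and 99.01% per cluster, but after thinning the share was 93.9% in cluster 1, 83.9% in cluster 3 and 52.3% in cluster 2. At the cells' own depth Aqp1 thus ran from abundant to a few reads, and 62.5% of all cells stood above 1. Whether a few reads differ from absence was not tested. The highest cluster mean minus the lowest was 2.43, above that of 99.99% of the 9666 genes and against a median of 0.10.

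Emcn had a different order. It averaged 2.02 ± 0.79 in the precollecting-like cluster 2 and 1.91 ± 0.68 in the Ptx3- capillary-like cluster 4, then 1.75 ± 0.71 in cluster 3. The means were 1.41 ± 0.88 in cluster 1 and 1.22 ± 0.75 in the valve-like cluster 5. Neighbours in this order lay well within the SD of the cells, and only clusters 2 and 5 differed by more than the SD of both. Clusters 4 and 5 differed by slightly more than the SD of cluster 4 and by less than that of cluster 5. Thinned cells gave the same 2 extremes, 1.98 in cluster 2 and 1.15 in cluster 5.

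Plvap was low in cluster 3. It was detected in 70.2% to 76.4% of the cells of clusters 1, 2, 4 and 5 and in 25.7% (17.7% to 35.2%) of cluster 3, and in 9.20% of cluster 3 after thinning against 42.6% to 64.6% elsewhere. The mean was 0.89 ± 0.81 in cluster 1, 0.59 ± 0.63 in cluster 2, 0.59 ± 0.60 in cluster 4, 0.44 ± 0.49 in cluster 5 and 0.14 ± 0.33 in cluster 3. The cells outside cluster 3 thus had 5.36 times its linear level. Clusters 2 and 4 could not be ordered.

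Cd34 was highest in cluster 4, named Ptx3- capillary-like from Ptn, Anxa3 and Stc1. There it was detected in 68.3% of cells (58.3% to 77.2%), against 27.4% to 37.3% in the others, and it averaged 0.73 ± 0.72. The means elsewhere were 0.39 ± 0.65 in cluster 5, 0.20 ± 0.46 in cluster 1, 0.17 ± 0.43 in cluster 2 and 0.15 ± 0.34 in cluster 3, the last 3 of which could not be ordered. Fndc1, also a marker of the Ptx3- capillary class, was raised in cluster 3 and not in cluster 4, so high Cd34 did not follow the whole class. Cluster 4 also had the highest share of cells with a read of the fibroblast list, 43.6% against 35.2% over all cells, and a Dcn level 2.83 times that of other cells. Within cluster 4, Cd34 was detected in 62.9% of the 35 cells with no read of a fibroblast or mural list gene. Its mean was 0.70 in these and 0.75 in the remaining 66. Over the cells of all clusters without such a read its share was 29.7%, and its mean was 0.24 against 0.32 in the rest. In each cluster the mean was lower in the cells without such a read, as in cluster 2 with 0.10 against 0.22. The part of such reads in the level of Cd34 was not tested. This cluster rested on the clustering settings: with 10 components or with no regression of covariates the difference between the highest and lowest cluster means of Cd34 fell from 0.58 to 0.26 and 0.25. Of the cells in the highest cluster, 4.29% and 27.1% then came from cluster 4, so the place of Cd34 in the order of clusters was not kept.

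Taking 1.5-fold against all other cells as a threshold, 2 of the 4 members detected in at least 10% of cells were higher in cluster 1 (Aqp1 4.27-fold and Plvap 2.44-fold), where 5.87% of the 9666 genes were. Cd34 was 1.58-fold lower there, among 4.91% of genes. In cluster 2, Emcn was 1.57-fold higher (2.99% of genes were past this threshold), while Aqp1 was 4.47-fold and Cd34 1.82-fold lower (6.18% of genes). In cluster 3, Plvap and Cd34 were lower (8.37% of genes), the latter 2.32-fold, and none of the members was higher (4.71% of genes). In cluster 4, Cd34 was 3.40-fold higher (4.37% of genes) and Aqp1 1.78-fold lower (5.05% of genes). In the valve-like cluster 5, Cd34 was 1.53-fold higher (6.55% of genes) and Aqp1, Emcn and Plvap were lower by 3.50-, 1.93- and 1.79-fold (11.2% of genes). These members were chosen for how they vary in the same cells, so nothing is read from their number.

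**Figure D3:**
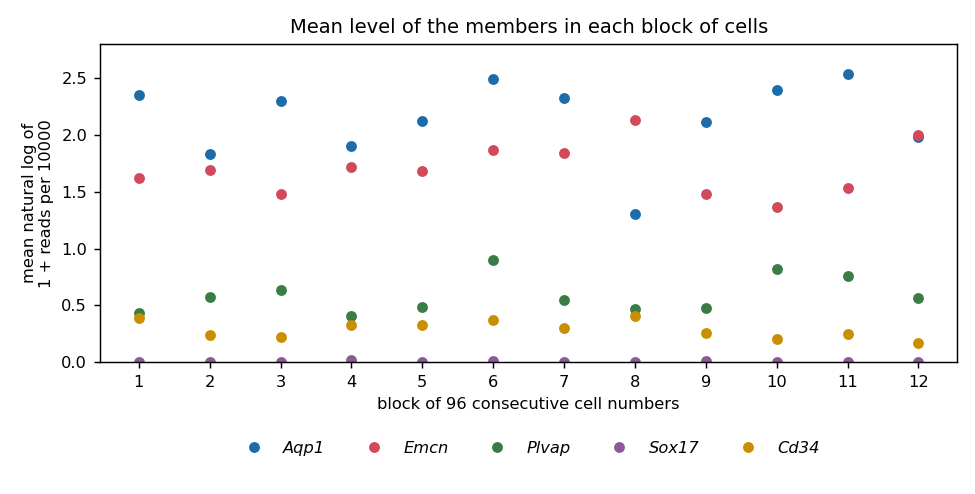
Mean level of each member (y axis, natural log of 1 + reads per 10000) in each of 12 blocks of 96 consecutive cell numbers (x axis), each point over the 18 to 83 cells analysed in that block. Aqp1 has the highest mean in most blocks and falls below Emcn in block 8, which holds 18 cells, and narrowly in block 12, while Sox17 stays near 0.

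The labels number the cells, and 12 blocks of 96 consecutive numbers were used to ask whether a pattern sat in a few of them. The labels do not say that a block is a plate. Block means of Aqp1 ran from 1.30 to 2.54 (median 2.21), those of Emcn from 1.37 to 2.13, those of Plvap from 0.41 to 0.90 and those of Cd34 from 0.17 to 0.41. Cluster 1 had the higher Aqp1 mean than cluster 2 in 12 of 12 blocks, with differences of 1.37 to 3.16. Plvap was higher in cluster 1 than in cluster 3 in 12 of 12 blocks, by 0.41 to 1.04. Emcn was higher in cluster 2 than in cluster 5 in 11 of 12 blocks and than in cluster 1 in 10. Cd34 was higher in cluster 4 than in cluster 5 in 9 of 12 blocks and than in cluster 1 in 11, although a cluster had as few as 1 cell in a block.

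**Figure D4:**
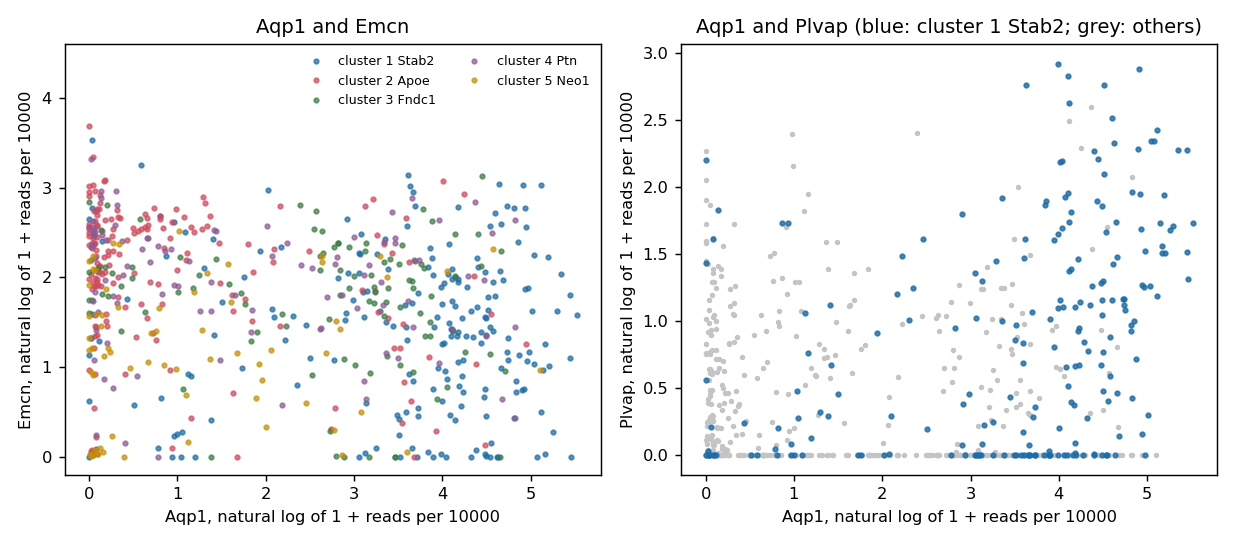
Level of Emcn (left, cells coloured by cluster) and of Plvap (right, cluster 1 in blue and other cells in grey) against that of Aqp1 in each cell, all as natural log of 1 + reads per 10000. Emcn declines weakly with Aqp1 (rho -0.23), and Plvap rises with Aqp1 among the blue points (rho 0.42) and not among the grey ones.

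The 5 genes did not vary together. Over the 10 pairs the median Spearman rho over cells was 0.0037, where all cells share 1 pool and differ in depth. The largest in size joined Aqp1 and Emcn, at -0.23, and was -0.11 once the mean of each cluster was removed. Aqp1 and Plvap had a rho of 0.17, Plvap and Sox17 of 0.12 and Aqp1 and Sox17 of 0.11, the last 2 resting on the 13 cells with Sox17. Every other pair lay within 0.06 of 0.

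The relation of Aqp1 to Plvap was seen within the Ptx3+ capillary-like cluster. Its rho was 0.42 over the cells of cluster 1 and 0.44 over those of them that could be thinned. In the other clusters it lay between -0.04 and 0.12. Over the cells with no read of a fibroblast or mural list gene, of which 22.8% were in cluster 1, the pooled rho turned to -0.07. Within cluster 1 it was 0.28 in 53 such cells. Elsewhere it was -0.23 in cluster 2 (67 such cells), 0.05 in cluster 3 (41), -0.19 in cluster 4 (35) and -0.20 in cluster 5 (36). The mural list was mostly Kcnj8. With Kcnj8 left out of the lists the rho within cluster 1 was 0.38, and in the other clusters it lay between -0.22 and 0.15.

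The genes most like each member in their pattern over all cells analysed were taken from the genes detected in at least 30% of cells. Aqp1 was most like Gm525 (rho 0.54), Igfbp4 (0.49), which encodes a binding protein of insulin-like growth factors, the hyaluronan scavenger receptor gene Stab2 (0.49), the hyaluronan receptor gene Lyve1 (0.44) and Ablim3 (0.43). It ran most against Clca3a1 (-0.56), the endothelial nitric oxide synthase gene Nos3 (-0.47) and Serpine2 (-0.46). In all, 0.663% of 5278 genes had a rho of 0.3 or more with Aqp1 and 0.493% a rho of -0.3 or less. After thinning Gm525 stood at 0.61 and Stab2 at 0.56, so the common depth left these in place.

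The other members had weaker partners. Emcn was most like Clca3a1 (0.32), Tm4sf1 (0.29), the proteoglycan gene Bgn (0.29) and Tspan7 (0.29), and Aqp1 itself had the lowest rho with it. The share of genes with a rho of 0.3 or more was 0.0379% for Emcn. Over all cells Clca3a1 was thus the gene most like Emcn and the gene least like Aqp1. With the mean of each cluster removed, its rho was -0.39 with Aqp1 and 0.19 with Emcn, where Bgn had 0.22 and Tm4sf1 0.21. Plvap was most like the matricellular gene Sparc (0.42), the tetraspanin gene Cd81 (0.33) and Igfbp7 (0.30), and ran against Tnxb (-0.36), Tgfbi (-0.34) and Fndc1 (-0.32), the marker of cluster 3. For Plvap 0.0379% of genes had a rho of 0.3 or more and 0.152% a rho of -0.3 or less. For Cd34 the highest were the scavenging chemokine receptor gene Ackr3 (0.27) and Adamtsl1 (0.25), and no gene passed 0.3 in either direction. Sox17 stayed within 0.17 of 0 for all genes.

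The level of Aqp1 varied with depth and with several lymphatic genes. Its rho was -0.23 with reads per cell, -0.17 with detected genes and -0.14 with the score of dissociation genes, the immediate-early and heat shock genes induced when tissue is digested. With the summed level of the lymphatic identity genes it was 0.50, and with that of the pan-endothelial genes 0.08. The sum is of linear levels and holds abundant genes such as Lyve1, which is itself among the genes most like Aqp1. Prox1 had another order, with its highest mean, 1.79, in the valve-like cluster 5, where Aqp1 was low. With the summed mural list, which is led by Kcnj8, it was 0.27. Cluster 1 also had the highest mean of that list, 3.28 reads per 10000 against 1.57 over all cells, and 63.7% of its cells had a read of it. Aqp1 averaged 3.21 in the 53 cells of cluster 1 with no fibroblast or mural read and 3.55 in the rest of it. Cd34 had a rho of 0.20 with detected genes and of 0.11 with the summed fibroblast list, and the part of these in its level was not tested. The rho of Emcn with each quality measure, and that of Plvap with the fibroblast and mural lists, lay within 0.12 of 0.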

How the data were processed

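According to the methods, the authors mapped the Smart-seq3 reads with STAR to mm10, summed them by gene with featureCounts (Subread), removed cells with few genes or many mitochondrial reads, and normalized in Seurat 4.1.0 (version per the labels). Strand in counting is not given in the sources used here. The methods state a log2 scale, but the deposited values are natural logs: raising e to each value and subtracting 1 gave columns that each summed to 10000. Of the values above 0, 100% came out as whole reads within 0.01 reads. Reads, not molecules, were counted, so intervals cover counting error only. Of the labelled cells, 43.1% were not analysed here. Most counts of cells are given as shares, and that of all cells to the nearest 10.

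The members and gene lists were chosen with earlier results of these data known. Exact 95% intervals of shares came from scipy 1.17.1, and the upper limit for a count of 0 was set at 3 cells. The 88 cells under 20000 reads were left out of thinning. Clustering used Seurat 5.3.0 in R 4.3.3, following the study's steps (variable genes scaled with regression of reads, mitochondrial share, dissociation and ribosomal scores, then Louvain clustering), at the lowest resolution giving 5 clusters (0.7). The naming thresholds for clusters were set after the data were seen. Doublets were not called, wells having received single cells. Percentiles of variance used a lowess trend (statsmodels 0.14.6). Folds add 0.1 reads per 10000 to both groups.

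Named genes were the 5 members, listed relatives and markers with emphasis on the 2 highest and lowest shares of each list, the 5 highest and 3 lowest rho per member, and the 3 leading genes of each cluster, of which 1 is not reported here. Gene positions for lengths and overlaps came from GENCODE M21 (GRCm38), where 22258 of 23168 symbols were found. Alternatives covered the detection threshold, thinning, cell filters, adjustment of rho and clustering settings. The leaving out of cells with fibroblast or mural reads was added after seeing the data. Recovery, thinning, likeness and clustering were tested on simulated data: 100% of reads over 23168 genes were recovered, 25 of 25 most alike genes belonged to the planted class (11128 genes), and 99.8% of simulated cells were clustered with their planted class (20528 genes). The simulated reads had counting noise only, so these results check the steps and not how firm the clusters here are.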

Additional observations from a re-analysis of the deposited data

How the results depend on the processing

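The data are 1 pool, so neither differences between mice nor replicate error can be given, and cells with under 20000 reads limit the detection of Cd34 and Sox17. No paired analysis was possible because all cells belong to 1 group. The median level, the variance percentile, the median rho and the median spread of the members across clusters kept within 1.5 times of their value, or for rho within 0.1 of 0, under all alternatives run. The median detection share of the members, 65.9%, was 27.3% with a level above 1 and 50.2% in thinned cells. The median of the blood lists, 26.98%, was 8.54% with a level above 1, 14.8% in thinned cells, 19.4% in cells with no read of a fibroblast or mural list gene and 23.2% where Kcnj8 was allowed. Among pairs with a rho of at least 0.1 in size, 2 changed sign: the rho of Aqp1 and Plvap was -0.0687 in cells with no fibroblast or mural read, and that of Aqp1 and Sox17 was -0.012 with the mean of each cluster removed. All 6 pairs nearer to 0 crossed it under at least 1 alternative, and that of Sox17 and Cd34, detected together in 3 cells, reached 0.199 with the mean of each cluster removed. The cause was not tested. The spread of Cd34 across clusters and its highest cluster depended on the number of components and on regression. The clusters without regression matched the others least (adjusted Rand index 0.279). The spreads of Aqp1, Emcn and Plvap kept within 1.5 times, but the cells of their highest clusters changed. Without regression, 51.8% of the cells in the cluster highest in Aqp1 came from cluster 1, and 43.2% for Plvap. With 10 components both shares were 92.9%. For Emcn, the share from cluster 2 was 68.9% with 10 components and 92.4% without regression.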

Other observations

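Some of the other blood-vessel genes also differed between clusters. Selp, which encodes the adhesion molecule P-selectin, had 5.37 times the linear level of other cells in the Ptx3+ capillary-like cluster 1, where 42.5% of cells had reads of it against 26.98% over all cells. Slco2a1, the prostaglandin transporter gene, averaged 0.91 in cluster 4 and 0.79 in cluster 2 on the natural log scale, and between 0.19 and 0.26 in the remaining 3 clusters. Gja4, which encodes a connexin of arteries and of lymphatic valves, is also a downstream-valve class marker and was highest in the precollecting-like cluster 2, where Clu of the same class was raised too, with a mean of 0.95 against 0.39 in the valve-like cluster 5. Podxl, a sialomucin gene related to Cd34, averaged 0.77 in cluster 1, 1.33 in cluster 2, 1.5 in cluster 3, 1.69 in cluster 4 and 1.36 in cluster 5, lowest where Aqp1 was highest. Selp, Slco2a1 and Gja4 belong to the lists left out of the clustering, and all these values are descriptions of the 1 pool.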
